A study of Mus musculus with 12 samples.

Results

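Described here are 8 genes of cholesterol synthesis and its control by the transcription factor SREBP2, in the kidney of mice treated with cannabidiol (CBD), a non-intoxicating compound of hemp. They are Srebf2, which encodes SREBP2, Insig1, which restrains it, and 6 enzymes of the pathway, Hmgcs1, Idi1, Fdft1, Sqle, Lss and Cyp51. The genes were taken by symbol from a list of the pathway, and they are 8 of the 57180 genes in the count files. All 8 passed the filter on low counts, which left 17163 genes to test.

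Poly(A) RNA from kidney tissue of 12 young adult male C57BL/6J mice was sequenced, with 4 mice in each of 3 groups and 1 library per mouse. The control group (Control) was injected into the abdominal cavity with saline that held a detergent, and the 10CBD and 20CBD groups were injected with the same vehicle carrying 10 or 20 mg CBD/kg b.w. All injections were given daily for 28 days. The mice carried no transgene or deletion that the labels name. The comparisons ask whether the expression of the pathway differed between either dose and the vehicle, and between the doses.

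Cells make cholesterol from acetyl-CoA through mevalonate, the isoprenoid farnesyl pyrophosphate, squalene and lanosterol. When sterols are scarce, SREBP2 is carried from the endoplasmic reticulum to the Golgi apparatus, cut there by proteases, and its freed part enters the nucleus and binds sterol response elements in the promoters of the enzymes of the pathway, of the LDL receptor and of its own gene. When sterols are plentiful, INSIG proteins hold the complex back in the endoplasmic reticulum. In the kidney, cholesterol is needed for the membranes of the tubule cells, which also take up lipoproteins and other ligands from the filtrate through megalin and cubilin.

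The promoters of 3 genes are shown because they carry, in the bases before the gene, the letters of a sterol response element (Hmgcs1) or of an E-box (Insig1), or belong to the factor itself (Srebf2). The capitals mark matches to TCACNCCAC (sterol response element), to CCAAT (the NF-Y box), to GGGCGG (the Sp1 box) and to CACGTG (the E-box), each searched on both strands. The sequences come from a RefSeq table of build GRCm38.p6 and were located by exact match on GRCm39, the build of the counts. They are given on the strand of the gene and end before the RefSeq start or the first base that GENCODE assigns to the gene, whichever comes first. Those of Srebf2 (chr15:82031220-82031381, plus strand), Hmgcs1 (chr13:120151637-120151886, plus strand) and Insig1 (chr5:28276160-28276314, plus strand) follow.
Srebf2: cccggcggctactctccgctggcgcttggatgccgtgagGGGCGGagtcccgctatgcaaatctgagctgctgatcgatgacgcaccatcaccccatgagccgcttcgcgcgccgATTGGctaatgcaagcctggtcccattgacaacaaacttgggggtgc
Hmgcs1: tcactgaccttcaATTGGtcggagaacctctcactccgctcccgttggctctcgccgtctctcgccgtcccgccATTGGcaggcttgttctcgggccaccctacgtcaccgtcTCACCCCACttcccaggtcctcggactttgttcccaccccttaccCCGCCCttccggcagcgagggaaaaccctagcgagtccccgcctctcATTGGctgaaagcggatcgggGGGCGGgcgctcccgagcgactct
Insig1: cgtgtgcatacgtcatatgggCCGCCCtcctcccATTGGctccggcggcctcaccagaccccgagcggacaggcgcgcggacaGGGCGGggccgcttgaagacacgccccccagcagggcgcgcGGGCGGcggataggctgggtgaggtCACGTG
In windows of 250 bases before to 50 after the RefSeq start, the sterol response element was found in the window of Hmgcs1, 1 of the 6 members with an entry, and in 1.44% of the windows of 27025 genes. It was found in 0 of 44 other genes of the pathway with an entry. The NF-Y box was present in 6 of 6 members, in 56.8% of the other pathway genes and in 41.1% of all genes, and the Sp1 box was present in 6 of 6 members, in 72.7% of the other pathway genes and in 38.2% of all genes. The E-box was found in the window of Insig1 alone among the 6, in 18.2% of the other pathway genes and in 8.09% of all genes. These are matches of letters and not measured binding. Only exact matches were counted, so a window without a match may still hold an element with other letters. The Srebf2 sequence above holds tcaccccat, which differs from the searched letters only in its last base and is not marked. Matches in a window past the end of its printed sequence were counted but are not shown. Sqle and Fdft1 had no entry in the table.

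Each library held 15417867 to 23532088 counts on genes, and the members had from 89 counts (Idi1) to 9026 counts (Hmgcs1) in a library. The mitochondrially encoded genes took 3.53% to 23.42% of the counts, and they took under 10% in 4 libraries, which were Control replicate 2, 10CBD replicates 1 and 3 and 20CBD replicate 3. Defining markers of proximal tubule, thick limb, distal tubule, collecting duct and podocytes were present in every library. At 20CBD against Control, edgeR called 1 of 6 proximal tubule markers, beside 0.303% of all genes. The called marker was not Lrp2, the gene of megalin, whose adjusted p in that comparison was 0.173 by edgeR. An edgeR unadjusted p under 0.05 was reached at 20CBD against Control by 2 of the 6 proximal tubule markers, 1 of 2 distal convoluted tubule markers and 1 of 3 endothelial markers. Of all genes 8.45% reached it. At 10CBD against Control it was reached by 1 of 6 proximal tubule, 1 of 3 resident immune and 1 of 4 hepatocyte markers. Of all genes 5.67% reached it in that comparison. The summed level of 5 adipocyte markers ranged from 3.98 to 48.3 CPM (counts relative to library size) in Control, from 0.858 to 16.0 CPM in 10CBD and from 0.42 to 8.07 CPM in 20CBD. Of the 4 adipocyte markers tested, 4 had an edgeR unadjusted p under 0.05 at 20CBD against Control and 3 at 10CBD against Control. EdgeR called 0 of these 4 in either comparison. The summed level of the 6 proximal tubule markers was 24600 to 27400 CPM in Control and 23100 to 31500 CPM in 20CBD. The part of these marker differences in the results below was not tested. Of 6 markers of the adrenal cortex, a neighbouring tissue rich in cholesterol, 5 were under 1 CPM in every library. The summed levels of the other markers overlapped between all groups, at 171 to 218 CPM for endothelium, 23.6 to 47.2 CPM for resident immune cells, 61.9 to 162 CPM for hepatocytes and 416 to 971 CPM for blood. In whole tissue, fewer cells of a type and less RNA per cell cannot be told apart.

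No gene of the 8 passed the edgeR test of the main fit in any comparison. With 4 mice in a group this does not show that the differences were small. The 95% interval of Idi1 at 20CBD against Control ran from 0.435-fold to 0.908-fold. Among the comparisons of a single dose with Control, the farthest from no change were Idi1, which was 0.629-fold at 20CBD against Control, Hmgcs1, which was 1.34-fold at 10CBD against Control, and Insig1, which was 1.27-fold at 20CBD against Control. By edgeR's quasi-likelihood test with Benjamini-Hochberg adjustment over all genes, 0 of 8 members were called at an adjusted p under 0.1 in 10CBD against Control, where 0.0291% of all genes were called, and the smallest adjusted p of a member was 0.812. In 20CBD against Control, 0 of 8 were called beside 0.303% of all genes, with a smallest adjusted p of 0.474. In 20CBD against 10CBD, 0 of 8 were called and 0% of all genes (13 genes by DESeq2 and 0 by limma-voom), with a smallest adjusted p of 0.769, and for both doses against Control 0 of 8 were called beside 0.14% of all genes, with a smallest adjusted p of 0.716. DESeq2 and limma-voom also called 0 of 8 members in each of these comparisons. An unadjusted p under 0.05 was reached by 1 member at 10CBD against Control (5.67% of all genes), by 2 at 20CBD against Control (8.45%), by 3 at 20CBD against 10CBD (6.31%) and by 0 for both doses against Control (7.04%).

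The direction of the fitted differences was mixed at the lower dose, and 6 of 8 were below 0 at the higher dose. At 10CBD against Control, 4 members were fitted higher and 4 lower, and the median log2 fold change of the 8 was -0.009 beside 0.012 over all genes tested, with a range of -0.043 to 0.034 when single libraries were left out. At 20CBD against Control, 2 were fitted higher and 6 lower, with a median of -0.15 beside 0.015 over all genes, which ranged from -0.19 to -0.060, the value without Control replicate 2. At 20CBD against 10CBD, 2 were fitted higher and 6 lower, with a median of -0.25 beside -0.003 over all genes. The SD between mice of a group in the mean log2 level of the 8 genes was 0.12. The comparisons of the doses share the same 4 control mice, so their directions are not independent of each other.

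**Figure D1:**
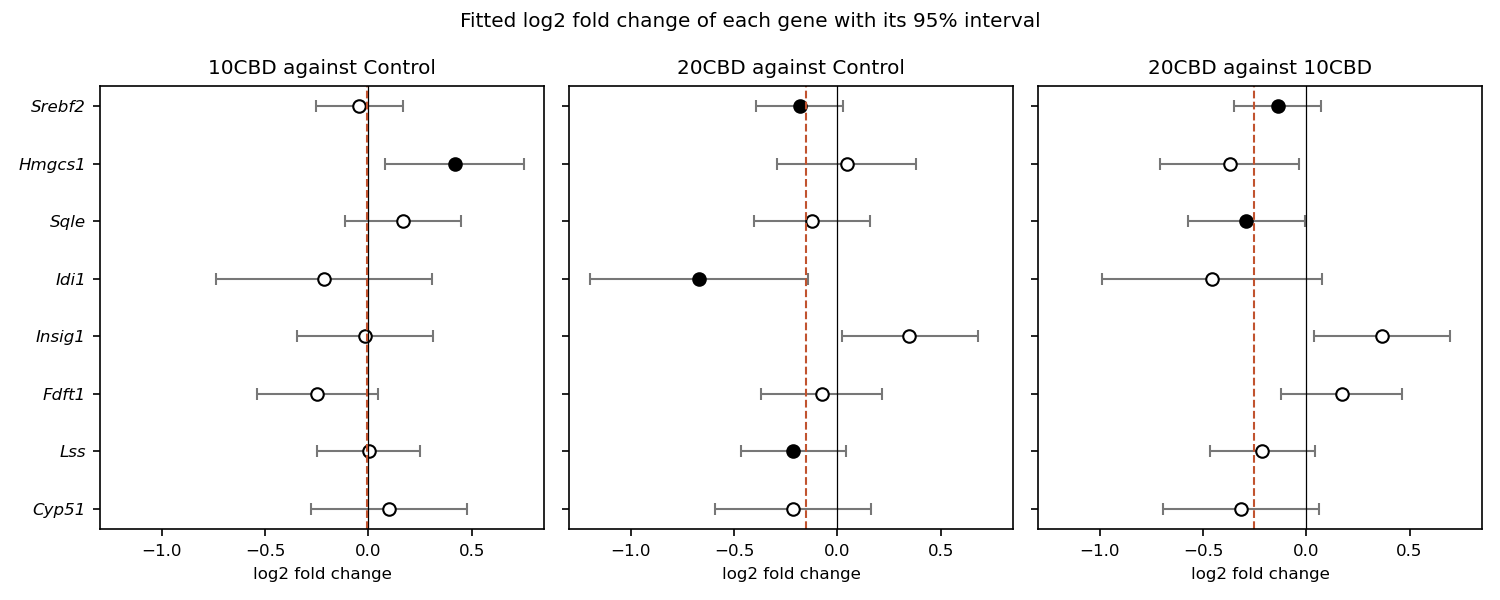
Fitted log2 fold change of each of the 8 genes (x axis) in 3 comparisons, with 95% intervals as bars. Filled points mark genes whose groups did not overlap, the dashed line is the median of the 8 genes, and at 20CBD against Control Idi1 at -0.67 lay farthest from 0.

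The 2 groups compared did not overlap in CPM for 1 of 8 members at 10CBD against Control, where Hmgcs1 was higher in every treated mouse (1.55% of all genes were higher without overlap). They did not overlap for 3 of 8 at 20CBD against Control, where Srebf2, Idi1 and Lss were lower in every treated mouse. Of all genes, 5.3% were without overlap in either direction in that comparison, and 2.63% were lower without overlap. At 20CBD against 10CBD the groups did not overlap for 2 of 8, Srebf2 and Sqle, which were lower in every mouse of the higher dose (1.4% of all genes were lower without overlap). The shares for 10CBD against Control and for 20CBD against 10CBD count only the direction seen in the members. They are therefore smaller than the shares without overlap in either direction. For both doses against Control, 0 of 8 members were without overlap, beside 0.862% of all genes.

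Srebf2 encodes the precursor of SREBP2 and lies at chr15:82031382-82093201 on the plus strand of GRCm39, and its introns hold the microRNA gene Mir33. In Control its level was 62.5, 57.2, 60.3 and 63.2 CPM in replicates 1 to 4. It was 60.8, 57.3, 60.6 and 57.1 CPM in the 10CBD mice. In the 20CBD mice it was 56.2, 54.9, 47.3 and 55.8 CPM. All 4 mice of the higher dose thus lay below all 8 other mice, by a small distance except in replicate 3, while Control and 10CBD overlapped. The fitted log2 fold change was -0.18 at 20CBD against Control (SE 0.099, 95% interval -0.39 to 0.028, edgeR adjusted p = 0.667), or 0.881-fold. The two-sided exact permutation test on the means gave p = 0.0286, the smallest that 4 mice against 4 allow. Here and below this p is not adjusted. Groups of 4 that do not overlap always give it, so it adds nothing to the lack of overlap. At 10CBD the log2 fold change was -0.044, with an interval of -0.26 to 0.17. Without 20CBD replicate 3 the value at the higher dose was -0.13.

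Insig1 encodes a membrane protein that keeps SREBP2 in the endoplasmic reticulum when sterols are plentiful, and it is itself a target of SREBP2. The gene lies at chr5:28276315-28283668 on the plus strand and shares no exon bases with another gene. Its level was 22.0, 26.4, 20.6 and 22.2 CPM in Control. In 10CBD it was 22.9, 25.7, 22.3 and 19.0 CPM. In 20CBD it was 29.5, 24.5, 37.8 and 24.3 CPM. Replicates 1 and 3 of the higher dose were above every other mouse, whereas replicates 2 and 4 lay within the range of Control. Insig1 was the member with the highest fitted difference at 20CBD against Control, a log2 fold change of 0.35 (SE 0.154, 95% interval 0.02 to 0.68, adjusted p = 0.56 by edgeR), and the two-sided exact permutation p was 0.0857. Against 10CBD the value was 0.37 (adjusted p = 0.769 by edgeR). Without 20CBD replicate 3, the value against Control was 0.19. At 10CBD against Control the log2 fold change was -0.018, with an interval of -0.35 to 0.31. Srebf2 and Insig1, the factor and its brake, were therefore fitted in opposite directions at the higher dose, and neither passed the edgeR test. With the mitochondrial share as a covariate, Insig1 had a log2 fold change of 0.41 and an adjusted p of 0.0805 by edgeR, under the threshold. That setting called 1385 of 17163 genes at 20CBD against Control, in place of 52 in the main fit.

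**Figure D2:**
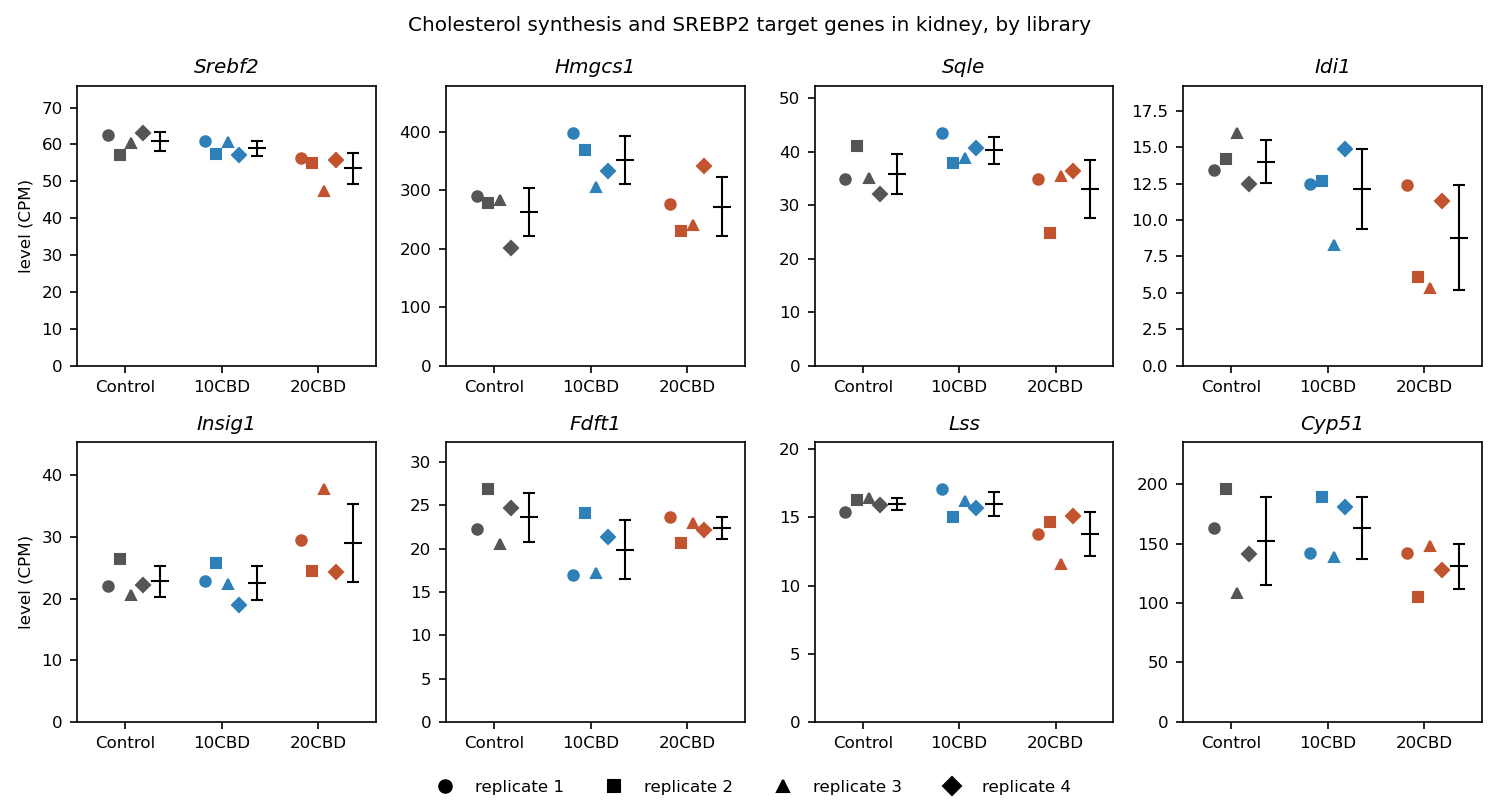
Level of each of the 8 genes in CPM (y axis, from 0) in the 4 mice of each group, with the symbol giving the replicate and the bar the group mean and SD. Idi1 was at 5.34 and 6.11 CPM in 2 mice of 20CBD and between 12.5 and 16.0 CPM in Control, and Hmgcs1 was at 306 CPM or more in every 10CBD mouse and at 290 CPM or less in Control.

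Hmgcs1 encodes the cytosolic HMG-CoA synthase, which acts at the entry of the mevalonate pathway, and lies at chr13:120151915-120170470 on the plus strand. It is the gene whose promoter carries the sterol response element shown above. Its level in Control was 290, 279, 283 and 202 CPM. The 10CBD mice had 399, 370, 306 and 333 CPM. The 20CBD mice had 277, 230, 240 and 341 CPM. All 4 mice of the lower dose lay above all Control mice, and those of the higher dose overlapped with both. The fitted log2 fold change was 0.42 at 10CBD against Control (SE 0.157, 95% interval 0.082 to 0.75, adjusted p = 0.812 by edgeR), or 1.34-fold, with a two-sided exact permutation p of 0.0286. At 20CBD against Control it was 0.045, with an interval of -0.29 to 0.38. The higher dose was lower than the lower dose by a fitted log2 fold change of -0.37 (95% interval -0.71 to -0.037, adjusted p = 0.769 by edgeR). Leaving out single libraries placed the value at 10CBD between 0.31, without Control replicate 4, and 0.48.

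Idi1 encodes isopentenyl-diphosphate delta-isomerase, which interconverts the isoprenoid building blocks, and lies at chr13:8935537-8942487 on the plus strand. In Control its level was 13.4, 14.2, 16.0 and 12.5 CPM. Levels in 10CBD were 12.5, 12.7, 8.31 and 14.9 CPM. Levels in 20CBD were 12.4, 6.11, 5.34 and 11.3 CPM. All 4 mice of the higher dose lay below all Control mice, but replicates 1 and 4 lay close to Control and replicates 2 and 3 far below it. The fitted log2 fold change at 20CBD against Control was -0.67 (SE 0.249, 95% interval -1.2 to -0.14, adjusted p = 0.474 by edgeR), or 0.629-fold. It was the largest fitted difference among the 8 genes in the 4 comparisons, and its two-sided exact permutation p was 0.0286. Over the other settings its adjusted p ranged from 0.0388 to 0.737, and it was under 0.1 without a filter on low counts and with the mitochondrial share as a covariate. At 20CBD against Control, those settings called 416 of 40012 and 1385 of 17163 genes in all. Without the 4 libraries with under 10% mitochondrial counts, which include the lowest mouse of each treated group, the log2 fold change of Idi1 was -0.48. At 10CBD against Control the log2 fold change was -0.21, with an interval of -0.74 to 0.31. This value was -0.069 without 10CBD replicate 3, -0.33 without 10CBD replicate 4 and -0.018 without the 4 libraries.

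Fdft1 encodes squalene synthase, which joins farnesyl units and commits them to sterols, and lies at chr14:63382189-63417027 on the minus strand. Its exons share 1184 bases with Ctsb on the opposite strand. Its level was 22.3, 26.9, 20.5 and 24.7 CPM in Control. At the lower dose it was 17.0, 24.1, 17.2 and 21.3 CPM. At the higher dose it was 23.6, 20.6, 23.0 and 22.2 CPM. The groups overlapped in every comparison, and replicates 1 and 3 of the lower dose, which are also its libraries with under 10% mitochondrial counts, were the lowest of the 12 mice. The fitted log2 fold change was -0.25 at 10CBD against Control (95% interval -0.54 to 0.046, adjusted p = 0.872 by edgeR) and -0.076 at 20CBD against Control (95% interval -0.37 to 0.22, adjusted p = 0.927 by edgeR). Without the 4 libraries with under 10% mitochondrial counts, the value at 10CBD was 0.011, the value of 20CBD against 10CBD was -0.029 and both directions turned. The value at 20CBD against Control ranged from -0.14, without Control replicate 3, to -0.0077, without Control replicate 2.

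Sqle encodes squalene epoxidase, a rate-limiting enzyme of the sterol branch, and lies at chr15:59186869-59203043 on the plus strand. In Control its level was 35.0, 41.1, 35.2 and 32.2 CPM. In 10CBD it was 43.6, 38.0, 38.8 and 40.7 CPM. In 20CBD it was 35.0, 24.9, 35.5 and 36.4 CPM. All 4 mice of the higher dose lay below all mice of the lower dose, and both doses overlapped with Control. Between the doses the fitted log2 fold change was -0.29 (SE 0.132, 95% interval -0.57 to -0.008, adjusted p = 0.782 by edgeR), with a two-sided exact permutation p of 0.0286. Without 20CBD replicate 2, the lowest mouse, it was -0.18. Against Control the value was 0.17 at 10CBD (95% interval -0.11 to 0.45) and -0.12 at 20CBD (95% interval -0.41 to 0.16), and the latter was -0.011 without the same mouse.

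Lss encodes lanosterol synthase, which folds the squalene chain into the sterol rings, and lies at chr10:76367298-76392976 on the plus strand. Its level was 15.4, 16.3, 16.4 and 15.9 CPM in Control. The 10CBD mice had 17.1, 15.0, 16.2 and 15.7 CPM. The 20CBD mice had 13.8, 14.7, 11.6 and 15.1 CPM. All mice of the higher dose lay below all Control mice, and the lower dose overlapped with both other groups. The fitted log2 fold change at 20CBD against Control was -0.21 (SE 0.119, 95% interval -0.47 to 0.04, adjusted p = 0.68 by edgeR), with a two-sided exact permutation p of 0.0286. Without 20CBD replicate 3 it was -0.14. At 10CBD against Control it was 0.001, with an interval of -0.25 to 0.25, and its sign changed with the setting.

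Cyp51 encodes lanosterol demethylase, which starts the trimming of lanosterol towards cholesterol, and lies at chr5:4123416-4154751 on the minus strand. Its exons share 1253 bases with Akap9 on the opposite strand. In Control its level was 163, 196, 108 and 141 CPM. Levels in 10CBD were 142, 189, 139 and 181 CPM. Levels in 20CBD were 142, 105, 148 and 128 CPM. The groups overlapped in every comparison, and the spread among the Control mice, a coefficient of variation of 24.5%, was the widest of the 8 genes in that group. The fitted log2 fold change was 0.10 at 10CBD against Control (95% interval -0.28 to 0.48, adjusted p = 0.958 by edgeR) and -0.22 at 20CBD against Control (95% interval -0.59 to 0.16, adjusted p = 0.81 by edgeR). Without the 4 libraries with under 10% mitochondrial counts the value at 10CBD was 0.43. The value at 20CBD ranged from -0.35, without Control replicate 3, to -0.069, without Control replicate 2. The libraries mark the strand of the RNA, but the strand setting of the counting is not given in the sources used here. It is therefore not known how reads were counted where exons of Cyp51 and Akap9, or of Fdft1 and Ctsb, overlap. The same holds for smaller overlaps with genes on the other strand. The most bases shared with a single gene were 686 for Srebf2, 557 for Hmgcs1, 470 for Sqle, 411 for Lss and 323 for Idi1.

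Per kilobase of exon, the 8 genes were expressed at very unequal levels. In Control, Hmgcs1 was the highest with 50 ± 7.79 CPM per kb (SD, n = 4), followed by Cyp51 with 25.6 ± 6.27 CPM per kb. Srebf2 followed with 6.51 ± 0.288 CPM per kb. These 3 genes lay apart from each other and from the rest by more than the spread between mice. Fdft1 (4.93 ± 0.586 CPM per kb), Insig1 (4.66 ± 0.515), Sqle (4.04 ± 0.421) and Idi1 (3.94 ± 0.416) followed, and adjacent genes among these 4 did not differ beyond their spread. Lss was the lowest with 1.41 ± 0.0406 CPM per kb, below all others. In 20CBD, Insig1 with 5.94 ± 1.3 CPM per kb stood next to Srebf2 with 5.73 ± 0.452, a difference within their spread, and Idi1 with 2.48 ± 1.01 CPM per kb remained above Lss with 1.21 ± 0.14. The length is that of all annotated exons of a gene joined, which is longer than any single transcript. The order of the genes depends on it. In CPM, Lss lay above Idi1, at 16.0 against 14.0 in Control and at 13.8 against 8.79 in 20CBD. In summed CPM the 8 genes reached 588 ± 64.2 in Control, 685 ± 54.5 in 10CBD and 563 ± 65.2 in 20CBD (SD, n = 4), and Hmgcs1 alone made up 39.4% to 55.8% of that sum. The spread within a group was narrowest for Lss in Control, with a coefficient of variation of 2.88%, less than the counting error of at least 5.08% that its counts allow in a library, and widest for Idi1 in 20CBD, with 40.8%.

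Of the other genes of the pathway, megalin (Lrp2) had the lowest adjusted p at 20CBD against Control. Of 58 further genes in 7 lists, 57 were tested and 0 were called in any of the 4 comparisons by edgeR or by limma-voom. DESeq2 called 1 of them, Lrp2, at 20CBD against Control (adjusted p = 0.00534), where it called 167 of 16501 genes in all, and 0 in the other comparisons. At an unadjusted p under 0.05, 0 of 57 were found at 10CBD against Control (5.67% of all genes) and 6 at 20CBD against Control (8.45%), of which 3 were higher and 3 lower. There were 8 at 20CBD against 10CBD (6.31%), of which 3 were higher and 5 lower, and 7 for both doses against Control (7.04%), of which 2 were higher and 5 lower. At 20CBD against Control 42 of the 57 were fitted lower, with a median log2 fold change of -0.14 beside 0.015 over all genes. At 10CBD against Control 30 were fitted lower and 27 higher, with a median of -0.012. These directions are a description of genes that share mice and regulators, and they were not tested as a set.

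**Figure D3:**
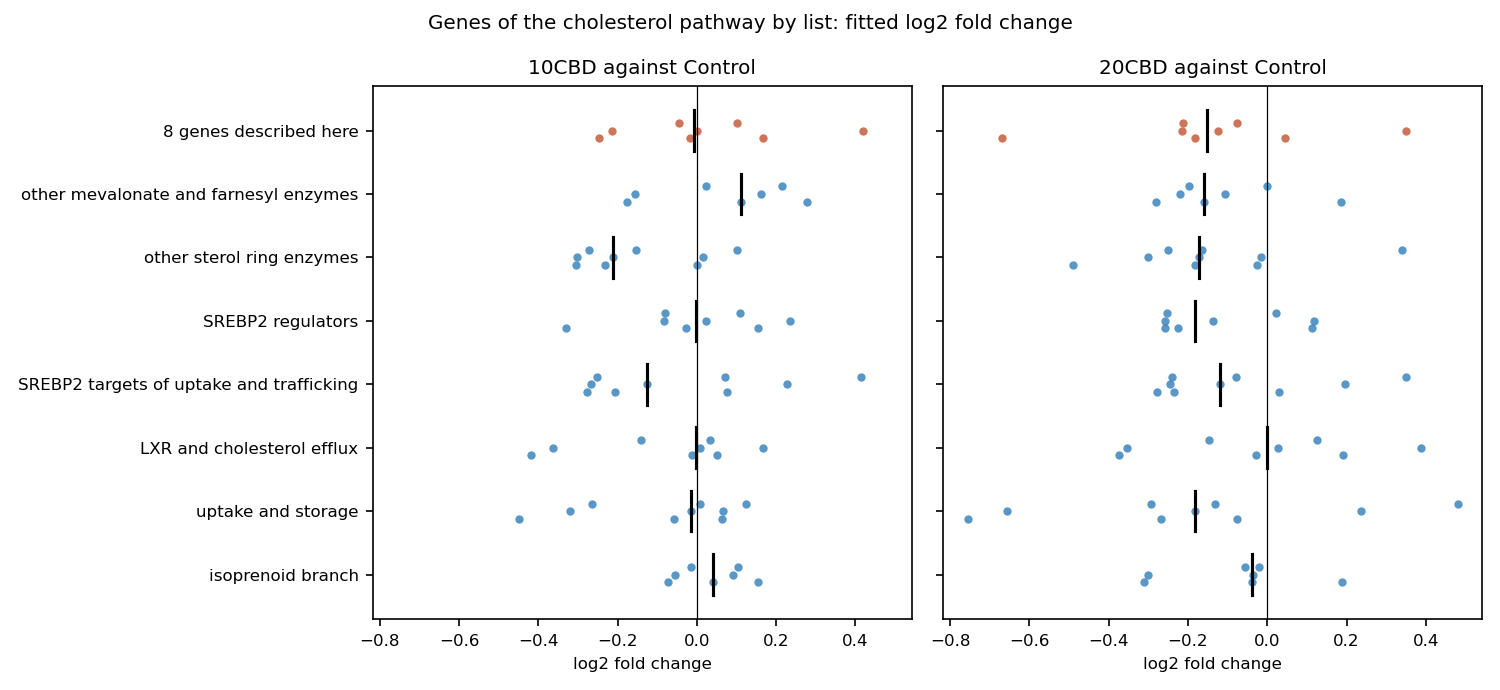
Fitted log2 fold change (x axis) of each gene of the 8 described here and of 7 further lists (rows) at 10CBD and 20CBD against Control, with a black bar at the median of each list. At 20CBD the median of the other mevalonate and farnesyl enzymes was -0.16 and that of the LXR and efflux genes was -0.001.

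Among the other enzymes of the mevalonate and farnesyl steps, 0 of 7 were called, and the list's median log2 fold change was 0.11 at 10CBD and -0.16 at 20CBD, against Control in each case. Mvd, which decarboxylates mevalonate diphosphate, was at 30.3 ± 1.54 CPM in Control, 33.8 ± 7.75 in 10CBD and 24.9 ± 3.97 in 20CBD (SD, n = 4). Its 20CBD mice all lay below its Control mice (log2 fold change -0.28, adjusted p = 0.68 by edgeR). Mvk, mevalonate kinase, was fitted highest in this list for both doses against Control, at 0.23 (95% interval -0.41 to 0.88), and Ggps1, which makes geranylgeranyl diphosphate, was fitted lowest, at -0.18 (95% interval -0.53 to 0.18).

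Among the other enzymes that modify the sterol rings, 0 of 9 were called and 8 of 9 were fitted lower at 20CBD against Control, with a median of -0.17. Ebp, a sterol isomerase, was fitted highest for both doses, at 0.18 (95% interval -0.24 to 0.59), and was at 228 CPM in 20CBD replicate 3 against 137 CPM or less in every other mouse.

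Of the regulators of SREBP2, 0 of 8 were called. Mbtps1, the Golgi protease that makes the first cut in SREBP2, was at 74.8, 65.5, 71.1 and 67.2 CPM in Control. In 20CBD it was at 62.3, 63.5, 45.3 and 62.1 CPM. These groups did not overlap, with a log2 fold change of -0.26 (95% interval -0.52 to 0.001, adjusted p = 0.59 by edgeR). For both doses against Control, Rnf139, a ubiquitin ligase of the endoplasmic reticulum, was fitted lowest at -0.29 (95% interval -0.67 to 0.084).

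Of the SREBP2 targets of uptake and trafficking, 0 of 9 were called. Lpin1, a phosphatidate phosphatase, was at 80.4, 98.0, 94.0 and 128 CPM in Control. It was at 130, 109, 151 and 121 CPM in 20CBD. The groups overlapped, with a log2 fold change of 0.35 (95% interval 0.037 to 0.66, adjusted p = 0.533 by edgeR). Among the genes of LXR and cholesterol efflux, 0 of 8 were called. Apoe, the apolipoprotein of several lipoproteins, was at 450 ± 64.6 CPM in Control and 590 ± 107 in 20CBD (SD, n = 4), with a log2 fold change of 0.39 (95% interval 0.063 to 0.71, adjusted p = 0.503 by edgeR). Abca1, which exports cholesterol, was fitted at -0.40 for both doses against Control (95% interval -0.78 to -0.015, adjusted p = 0.677 by edgeR).

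Uptake and storage held the largest fitted difference of the further genes, although 0 of 9 were called by edgeR. Lrp2 encodes megalin, the endocytic receptor of the proximal tubule, and is also one of the proximal tubule markers. It was at 2160, 2210, 1890 and 2650 CPM in Control. At the lower dose it was at 1630, 2260, 1780 and 1740 CPM. At the higher dose it was at 1630, 1090, 1040 and 1520 CPM. The mice of the higher dose all lay below the Control mice and, before rounding, below those of the lower dose. The log2 fold change at 20CBD against Control was -0.76 (SE 0.182, 95% interval -1.14 to -0.37, adjusted p = 0.173 by edgeR and 0.00534 by DESeq2). Cubn, which encodes the partner receptor cubilin, was fitted at -0.66 (95% interval -1.32 to 0.011, adjusted p = 0.597 by edgeR), with overlap between the groups. Scarb1, the HDL receptor, was at 8.2 ± 0.799 CPM in Control and 11.5 ± 1.21 in 20CBD (SD, n = 4), without overlap, and had a log2 fold change of 0.48 (95% interval 0.147 to 0.81, adjusted p = 0.391 by edgeR).

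In the isoprenoid branch, 0 of 7 genes tested were called, and Idi2, the paralogue of Idi1, was not tested because its counts were too low. Dhdds, a subunit of the enzyme that makes the dolichol chain, was at 49.1 ± 4.2 CPM in Control and 39.6 ± 4.19 in 20CBD (SD, n = 4), without overlap, with a log2 fold change of -0.31 (95% interval -0.58 to -0.042, adjusted p = 0.516 by edgeR). Pggt1b, a subunit of an enzyme that attaches isoprenoids to proteins, was fitted highest for both doses at 0.12 (95% interval -0.16 to 0.39). Over the 57 genes, the groups did not overlap at 20CBD against Control for 6, of which Scarb1 was higher and the others lower, beside 5.3% of all genes.

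Among mice of the same group the 8 genes did not vary as a single block. After the group means were removed, 17 of the 28 pairs of genes had a positive Pearson correlation of log2 CPM across the 12 libraries and 11 a negative one, with a median r of 0.18. The highest was that of Fdft1 with Cyp51 (r = 0.827, permutation p = 0.00417, Benjamini-Hochberg adjusted p = 0.117 over 28 pairs; Spearman rho = 0.818, permutation p = 0.00886, adjusted p = 0.248). Without the 2 libraries farthest from the median of the first gene named, here Fdft1, the r was 0.85. The same rule was used for the pairs that follow. The lowest was that of Insig1 with Lss (r = -0.717, permutation p = 0.0546, adjusted p = 0.299; rho = -0.434, permutation p = 0.242, adjusted p = 0.66), and without the 2 farthest libraries its r was -0.561. An adjusted p under 0.1 was reached by 0 of 28 pairs, and an unadjusted p under 0.05 by 2 pairs, the second being Hmgcs1 with Idi1 (r = 0.644, permutation p = 0.0478, adjusted p = 0.299; rho = 0.552, permutation p = 0.099, adjusted p = 0.554), whose r was 0.635 without the 2 farthest libraries. Srebf2 was negatively correlated with Insig1 (r = -0.664, permutation p = 0.0679, adjusted p = 0.299, and rho = -0.287, permutation p = 0.447, adjusted p = 0.66). Without the 2 libraries farthest from the median of Srebf2 this r was -0.037, so that the relation depended on those libraries. Fdft1 and Cyp51 are also the members whose exons share the most bases with a gene on the other strand, Ctsb and Akap9 respectively. Whether this bears on their correlation was not tested.

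**Figure D4:**
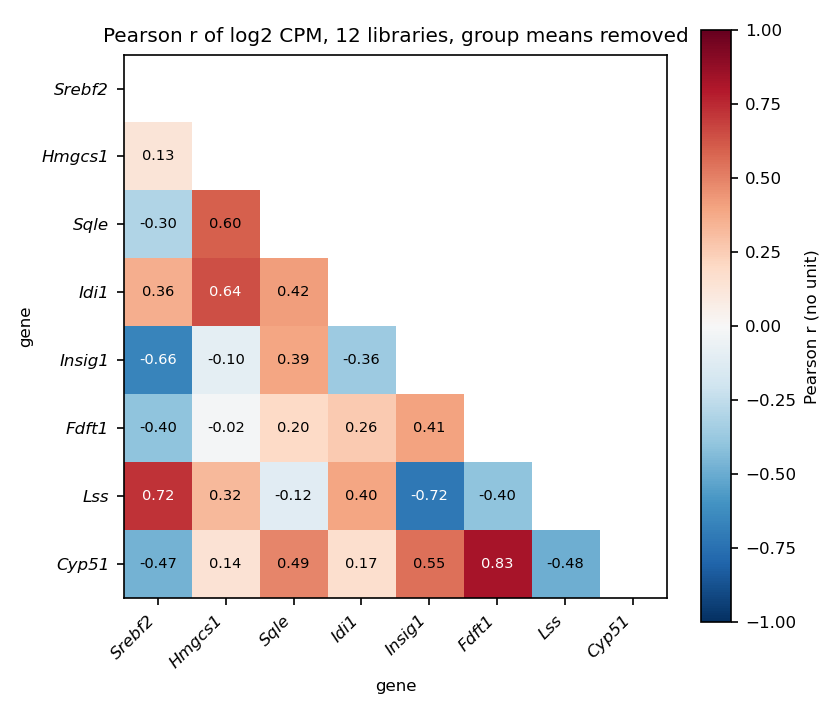
Pearson r between each pair of the 8 genes (rows and columns) over 12 libraries, on log2 CPM with the group means removed, on a colour scale from -1 to 1. The strongest positive cell is Fdft1 with Cyp51 at 0.83 and the strongest negative cell is Insig1 with Lss at -0.72.

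The mean standardized level of the 8 genes was lowest in 20CBD replicates 2 and 3, at -1.05 and -0.68, and highest in Control replicate 2, at 0.68. Of the members, Idi1 followed this mean most closely (r = 0.817 over 12 libraries, as a description, since its own level is in the mean), and Insig1 went against it (r = -0.304). The genes outside the list with the most similar pattern over the 12 libraries were Rbm47 (r = 0.953), Far1 (r = 0.914), Lin7c (r = 0.903), Ppp1cb (r = 0.893), Slc10a2 (r = 0.889), Lman1 (r = 0.887), Spcs3 (r = 0.88), Nudt17 (r = 0.875), Atp2c1 (r = 0.874) and Dld (r = 0.872). Of 17155 genes outside the list, 50 had an r over 0.8. The other genes of the pathway came lower in this order, led by Nceh1 (r = 0.835, rank 27), Osbp (r = 0.783), Lrp2 (r = 0.755) and Nus1 (r = 0.754). These values include the differences between groups and depth, and they were ranked from all genes.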

How the data were processed

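RNA from the kidneys of 12 mice was sequenced by the authors with a directional poly(A) kit (CORALL mRNA-Seq V2). Per the submitters' processing notes, FastQC 0.11.9, STAR 2.7.5c and HTSeq 1.99.2 were used on GRCm39. The strand setting and the annotation release are not given in the sources used here. The deposited values are raw read counts per Ensembl gene, made by the authors without normalization, and the summary lines of the counter were left out. Of the 57180 identifiers 99.0% were found in GENCODE vM39. The total per library was 15417867 to 23532088 counts, and the counting error of a member in a library, 100 over the square root of its count, was 1.05% (Hmgcs1) to 10.6% (Idi1); it covers counting error only.

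Groups were taken from the sample titles. Counts were filtered with filterByExpr, scaled by TMM and fitted over the 3 groups with edgeR 4.0.16 (glmQLFit, R 4.3.3), and p-values were adjusted over 17163 genes. A gene was called at an adjusted p under 0.1. CPM are counts scaled to the TMM-normalized library size, and log2 CPM had a prior count of 2. Single genes were also compared by two-sided exact permutation tests (SciPy 1.17.1), and correlations by 100000 resamples. P-values rest on the spread between mice of a group. The script was tested on simulated counts. The 8 genes, the pathway lists and the marker lists were chosen with earlier results of these data known, and nothing is supported by their choice. Named with values are the 8 genes, list genes that were called or did not overlap at 20CBD against Control, the genes of each list with the largest and the smallest log2 fold change of both doses against Control, and the 10 genes most like the mean of the 8. Some genes that this rule names are counted in their lists but not reported here. Alternatives were RLE and upper-quartile factors, DESeq2 1.42.0, limma-voom (limma 3.58.1), other filters, a replicate block, the mitochondrial share as a covariate, mitochondrial genes or libraries left out, only the groups compared, a stricter threshold and each library left out.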

Additional observations from a re-analysis of the deposited data

Results flagged for a closer look

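In 24 groups of 4 mice (8 genes in 3 groups), 3 values lay far from the other 3 of their group by Dixon's ratio of gap to range. Srebf2 in 20CBD replicate 3, at 47.3 CPM, had a ratio of 0.858 below the rest of its group. Hmgcs1 in Control replicate 4, at 202 CPM, had a ratio of 0.875, also below. Sqle in 20CBD replicate 2, at 24.9 CPM, had a ratio of 0.879, also below. At the 95% critical value used, chance alone marks about 5% of groups. Without these libraries the log2 fold change of Srebf2 at 20CBD against Control was -0.13, that of Hmgcs1 at 10CBD against Control was 0.31 and that of Sqle at 20CBD against 10CBD was -0.18.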

How the results depend on the processing

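With the replicate number as a replicate block, 27 genes were called at 20CBD against Control in place of 52, and 0 members in every comparison. Same-numbered mice had correlations of -0.33 to 0.317, with 4 of 12 pairs over 0.1, so the numbers were not taken as pairs. Without a filter on low counts 1 member, Idi1, was called at 20CBD against Control, and with the mitochondrial share as a covariate 2, Idi1 and Insig1. These settings called 416 of 40012 and 1385 of 17163 genes in that comparison. No other alternative called a member. Over all genes at 10CBD against Control, 5 calls became 34 with DESeq2, 331 without a filter, 15 with the mitochondrial covariate, 26 without the 4 libraries under 10% mitochondrial counts and 3 at an adjusted p under 0.05. At 20CBD against Control, 52 became 167, 416, 1385, 107 and 23 in the same order. At 20CBD against 10CBD, 0 became 13 with DESeq2, 256 without a filter and 62 with the covariate. For both doses, 24 became 117, 393, 276, 67 and 13 in the first order. Leaving out single libraries gave 2 to 8, 14 to 54, 0 to 0 and 8 to 35 calls; the 2 calls came without Control replicate 1 or 10CBD replicate 3, the 14 without Control replicate 1, 2 or 4, and the 8 for both doses without Control replicate 1. The cause was not tested.

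Some log2 fold changes turned sign. Lss at 10CBD against Control was -0.0037 with upper-quartile factors, -0.0019 with DESeq2, -0.025 without a filter, -0.052 without the 4 libraries and -0.035 to 0.028 with single libraries left out. Without the 4 libraries, Insig1 at 10CBD was 0.048, Fdft1 at 10CBD was 0.011 in place of -0.25, Fdft1 at 20CBD against 10CBD was -0.029 in place of 0.17 and Cyp51 for both doses was 0.149. With single libraries left out, Insig1 at 10CBD ranged from -0.091 to 0.058, Cyp51 at 10CBD from -0.036 to 0.25, Hmgcs1 at 20CBD against Control from -0.085 to 0.12, Cyp51 for both doses from -0.19 to 0.088 and Sqle for both doses from -0.028 to 0.093. The fit of only the groups compared gave no separate value for both doses, since it is the fit of all groups. The medians of the 8 genes moved by less than the spread between mice, and the number of members with each motif was the same before the start as in the whole window.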
